A study of Homo sapiens with 41 samples.

Results

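EDN1 encodes endothelin-1, a small secreted peptide, and was read here together with ECE1, its converting enzyme, and with EDNRA and EDNRB, its receptors. These 4 genes of the 58721 in the count table were chosen by name with earlier results of the same libraries known, EDN1 because it was among the genes with the largest rise, so their levels are given as a description and without a test. EDN1, ECE1 and EDNRA passed the filter on low counts, together with 21629 genes in all, and EDNRB did not. The cells were T98G, a human glioblastoma line that leaves the cell cycle when serum is withdrawn. They had been kept for 72 h in medium without serum and were then given medium with 20% fetal calf serum. Total RNA depleted of rRNA was sequenced at 0 min, before serum, and at every 10 min up to 400 min, with 1 library at each of the 41 time points. Each time point was a separate dish of this single line, no time point had a replicate, and errors come from the scatter of libraries about a smooth curve of time.

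Endothelin-1 is made as a long precursor that proprotein convertases such as furin cut to an inactive intermediate called big endothelin, which endothelin-converting enzyme then trims to the active peptide. The peptide binds receptor A or receptor B, both coupled to G proteins. Binding releases calcium through phospholipase C and inositol trisphosphate receptors. It is best known from blood vessel endothelium as a constrictor of vessels, and astrocytes and glioma cells also make and bind it. Receptor B additionally clears the peptide.

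Libraries held 18206982 counts (20 min) to 64948114 (70 min), with a median of 41773419, and levels below are normalized counts, in which each library was scaled by its median-of-ratios size factor (0.447 to 1.60). Over genes with a mean of at least 50, the library at 300 min lay farthest from the fitted curves (median distance 0.13 on the log2 scale), followed by those at 20, 250 and 90 min. Of 12 glioblastoma and astrocyte markers, 6 (VIM, CD44, SOX9, SLC1A3, NES and OLIG2) had a mean normalized count of at least 10. The others were near the floor, with GFAP, the astrocyte filament, at 1.66, S100B at 1.29 and ALDH1L1 at 1.28. SOX2 averaged 0.24, FABP7 0.089 and AQP4 0.049. Since endothelium is the classical source of endothelin-1, 10 endothelial markers were read as well. Their summed level at 0, 180 and 400 min was 44.6, 54.5 and 57.8, with 2 of them (VWF and PECAM1) at a mean of at least 10 and CLDN5 without a count. The summed level of the 12 glioblastoma and astrocyte markers was 49920 before serum and 91140 in the last library, nearly all of it VIM and CD44. That of 8 smooth muscle and pericyte markers was 4167 and 2049, nearly all of it PDGFRB (4097 and 1929), while ACTA2, the smooth muscle actin, had 58.1 and 95.1. That of 7 immune markers was 1983 and 1469, nearly all of it CD68 (1907 and 1404), and that of 6 epithelial markers was 1730 and 3419, most of it KRT18 (1385 and 3159). The part of these shifts in the results below was not tested. In bulk RNA, more cells making a transcript and more RNA per cell cannot be told apart.

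The start of EDN1 (ENSG00000078401.6, GRCh38, chr6:12290361-12297194, plus strand) has a compact promoter, which is shown because the rise of EDN1 is the main feature of these data and because the genes of factors that bind it were measured in the same libraries. The promoter is a textbook case of neighboring GATA and AP-1 elements. The 250 bases before the RefSeq start site (GRCh38.p14, chr6:12290111-12290360, plus strand) are given first. In capitals, from 5′ to 3′, stand a GATA motif (AGATAA, read on the opposite strand, -136 to -131 from the start site), a hypoxia response motif (ACGTG, opposite strand, -123 to -119), an AP-1 variant (TGACTAA, -108 to -102) and a TATA box (TATAAA, -31 to -26). The window of EDNRA (chr4:147480847-147481096, plus strand, RefSeq start site 180 bases inside the GENCODE start) follows for comparison and has none of them.
EDN1: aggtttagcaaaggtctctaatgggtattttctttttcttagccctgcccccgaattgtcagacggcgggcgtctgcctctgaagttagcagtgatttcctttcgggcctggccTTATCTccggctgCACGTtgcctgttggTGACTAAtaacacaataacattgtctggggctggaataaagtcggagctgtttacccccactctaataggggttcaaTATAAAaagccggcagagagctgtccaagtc
EDNRA: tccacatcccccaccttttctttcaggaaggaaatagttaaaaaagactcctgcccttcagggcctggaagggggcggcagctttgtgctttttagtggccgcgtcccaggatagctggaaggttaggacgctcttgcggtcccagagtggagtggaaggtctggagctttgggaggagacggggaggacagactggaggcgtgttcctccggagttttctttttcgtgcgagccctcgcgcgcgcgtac
Motifs were searched on both strands in 35116 RefSeq promoter windows of 250 bases, except the TATA box, which was searched on the strand of the gene. A GATA motif was present in 9.17% of windows, the hypoxia response motif in 18.5%, the AP-1 variant in 1.62% and the TATA box in 6.80%. The hypoxia response motif was also in both EDNRB windows, with 1 and 2 matches, and in another EDN1 window, with 2. It was in no ECE1 window. The last pair of motifs was chosen after the EDN1 sequence had been read. The standard AP-1 motif TGANTCA (6.57% of windows) was not in the EDN1, EDNRA or ECE1 windows. Both printed windows held 4 copies of the SMAD motif GTCT, which 77.5% of windows hold and which is left in lower case. A match to these letters is a description and not a bound site.

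EDN1 rose from one of the lower to one of the highest levels of any protein-coding gene in these cells, and the rise lasted until 180 min. In the libraries of the first 50 min its normalized count was 38.4 (37 raw counts), 28.1, 129.9, 357, 775 and 1523. It reached 2444 after 60 min, 5646 after 100 min and 11010 after 140 min, and its highest value was 11700 in the 180 min library. After 10 min every library was above the one before it for 13 successive steps, up to 140 min, and 10 libraries in a row from 130 to 220 min lay above 10000. The level at 180 min was 305-fold that at 0 min, with a 95% Poisson interval of 221 to 433 that covers counting error only and is set mostly by the 37 counts at 0 min. With size factors from the spike-in RNA the same ratio was 320.

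EDN1 then declined slowly and was still far above its start when the course ended. The normalized count was down to 8687 after 240 min, 7511 after 300 min and 5814 in the last library, which is 49.7% of the highest value (57.1% with spike-in size factors) and 152-fold the level at 0 min. Of the 22 steps after 180 min, 17 were downward. The level stood above 50% of its highest in all 28 libraries from 110 to 380 min.

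The speed of the curve is given over 3 windows chosen after the values were seen, the first of which starts at the lowest library. From 10 to 50 min (5 libraries) the doubling time was 7.10 min, with a 95% interval of 5.38 to 10.4 from the regression of the log count on time. From 60 to 140 min (9 libraries) it was 35.1 min (31.6 to 39.5). From 180 to 400 min (23 libraries) the level dropped by 50% in 226 min (212 to 242), which is a rate of the measured level and not an mRNA decay rate. The running mean of 3 libraries passed the midpoint of the rise at 98 min and was highest at 170 min.

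Against the fitted curve at 0 min, EDN1 had a log2 change of 6.20 ± 0.18 (SE) by 60 min, 8.31 ± 0.18 by 240 min and 7.65 ± 0.18 by the end. Libraries scattered about the curve with an SD of 0.19 on the log2 scale, and the largest departure was -0.88, at 10 min, where the count was 25. The size of the change therefore rests on the first libraries. If the 0 min library was left out, the value at 0 min was extrapolated from the curve through the later libraries. The log2 change of EDN1 at 240 min was then 10.32 ± 0.38. With all libraries and a curve of 5 degrees of freedom it was 7.67. Leaving out the 10 min library gave 7.93. The rise was there under each of these settings.

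**Figure D1:**
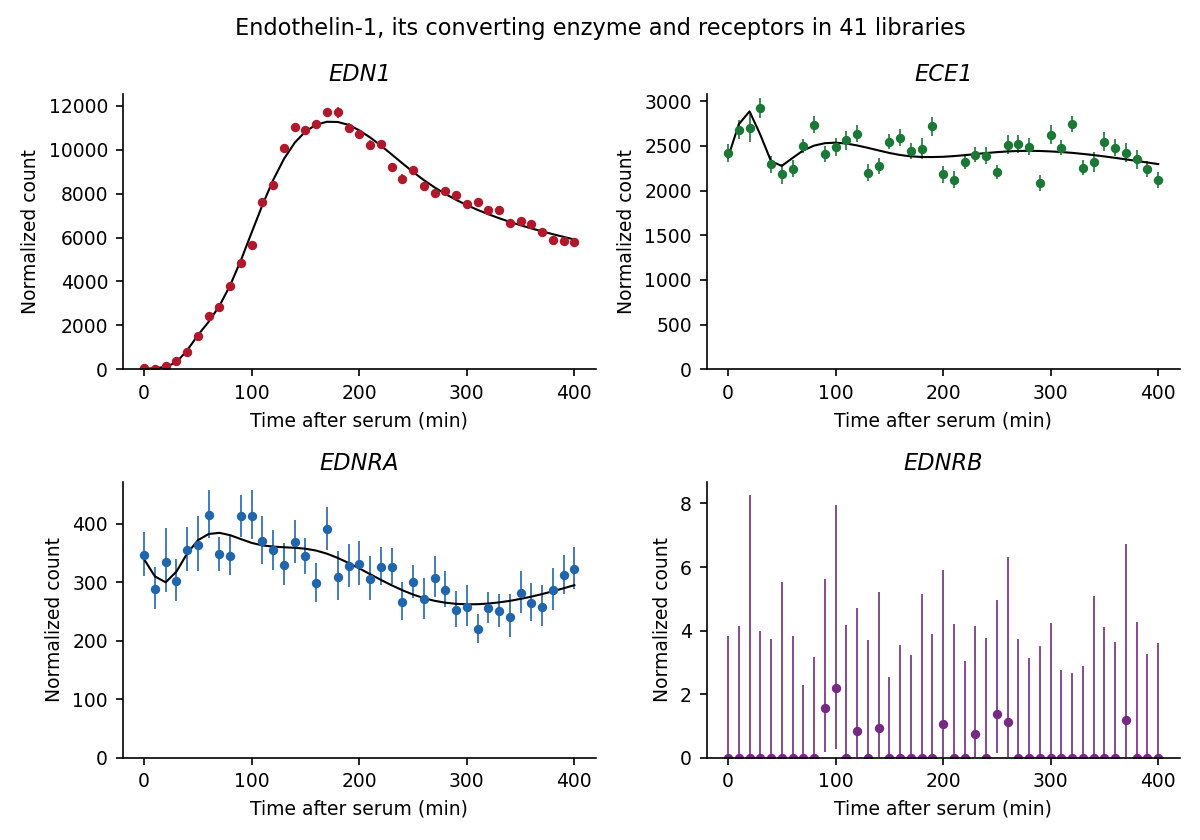
Normalized counts of EDN1, ECE1, EDNRA and EDNRB against time after serum (min), 1 point per library, with 95% Poisson bars (counting error only) and, for the 3 genes that were fitted, the spline curve as a black line. EDN1 climbs to 11700 at 180 min and ends at 5814, ECE1 stays between 2082 and 2920, EDNRA between 219.7 and 415, and EDNRB has no more than 2 counts in any library.

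ECE1 (ENSG00000117298.15, chr1:21217247-21345572, minus strand), the membrane metalloprotease that makes the active peptide, was plentiful before serum and stayed at about the same level. Its normalized count was 2416 at 0 min and 2117 at 400 min, with a lowest value of 2082 at 290 min, a median of 2441 and a highest value of 2920 at 30 min. The highest library was thus 1.40-fold the lowest, and the coefficient of variation over the 41 libraries was 8.09%. At 60, 240 and 400 min its log2 change was -0.0036 ± 0.11 (SE), 0.030 ± 0.10 and -0.046 ± 0.11, all within the scatter of 0.11 about the curve. The sign of these values depended on the setting, from 0.25 ± 0.28 at 240 min without the library at 0 min to -0.17 ± 0.08 with 5 degrees of freedom.

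EDNRA (ENSG00000151617.16, chr4:147480917-147544954, plus strand), the receptor through which endothelin-1 contracts smooth muscle, was present at a moderate level in every library. Its normalized count was 346.5 at 0 min and 322.5 at 400 min, with a lowest value of 219.7 at 310 min, a median of 311 and a highest value of 415 at 60 min. EDNRA moved in a shallow wave, with a curve highest at 70 min (384) and lowest at 300 min (262). The 5 libraries from 60 to 100 min averaged 386.7 ± 36.9 (SD, across time points) and the 6 from 290 to 340 min averaged 246.3 ± 14.3, windows that were chosen after the values were seen. At 60, 240 and 400 min the log2 change was 0.17 ± 0.13 (SE), -0.24 ± 0.12 and -0.20 ± 0.13. Without the 0 min library it was 0.45 ± 0.36, 0.036 ± 0.37 and 0.079 ± 0.37. With spike-in size factors the value at 60 min was -0.054, a scaling that moved the median of all genes there from 0.011 to -0.22.

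EDNRB (ENSG00000136160.15, chr13:77895481-77975529, minus strand), the receptor that also clears endothelin-1, was close to undetectable. It had 12 counts in the whole course, 1 count in each of 6 libraries and 2 counts in each of 3, out of 1775587284 counts. The libraries with a count lay between 90 and 370 min, and at this depth no change with time was detectable. Per kb of exon, EDNRA had 1479-fold the counts of EDNRB over all libraries, with a 95% Poisson interval of 847 to 2863. The T98G cells in these libraries thus held transcripts of receptor A and nearly none of receptor B.

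Per kb of exon, the order of the genes turned over in the first 40 min. At 0 min the normalized count per kb was 331 for ECE1, 81.8 for EDNRA and 18.9 for EDN1. EDN1 first exceeded EDNRA at 30 min and ECE1 at 40 min (50 min with canonical transcript lengths). Per kb, EDN1 stood at 0.057 of ECE1 before serum, 17.6 times ECE1 after 200 min, its highest ratio, and 9.86 times in the last library. Against EDNRA the same ratio was 0.231 before serum, 78.9 after 180 min and 37.6 in the last library. ECE1 kept a median of 4.60 times the level of EDNRA, between 3.13 and 6.54, so that both ratios followed the ligand. Among 14056 protein-coding genes tested, the per kb rank of EDN1 at 0, 180 and 400 min was 11333, 102 and 303, while that of ECE1 was 2690, 3043 and 3709 and that of EDNRA 7755, 8238 and 8009.

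**Figure D2:**
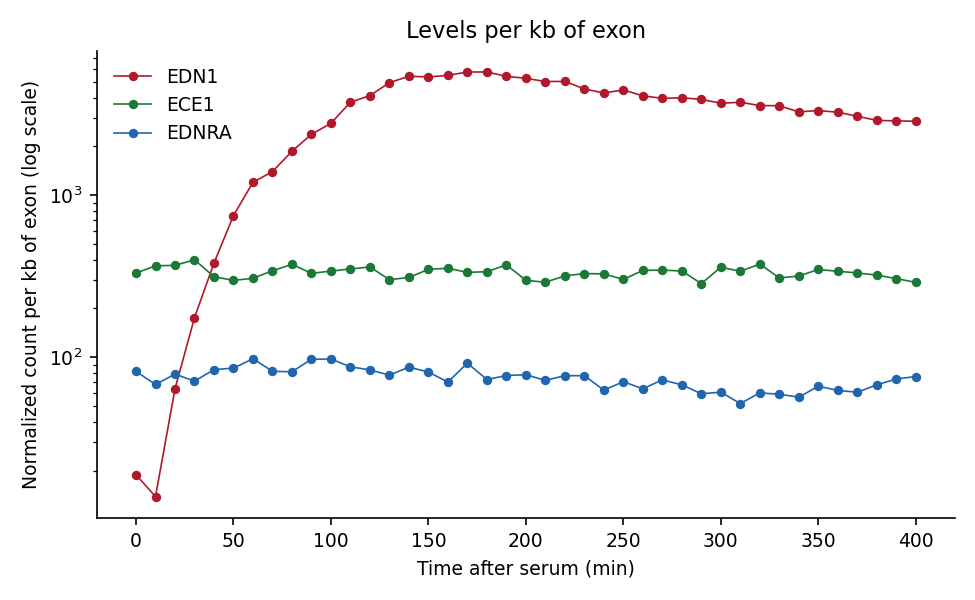
Normalized count per kb of exon (log scale) of EDN1, ECE1 and EDNRA against time after serum (min), 1 point per library. EDN1 starts below both other genes, crosses EDNRA by 30 min and ECE1 by 40 min, and stays above them to 400 min.

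The members did not move together. Over the 41 libraries, which share their size factors, Pearson's r of log2(normalized count + 1) was -0.13 between EDN1 and EDNRA, -0.27 between EDN1 and ECE1 and -0.05 between EDNRA and ECE1.

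The other endothelin genes were as good as silent. EDN2, the ligand of intestine and ovary, had 18 counts in all and no more than 2 in a library. EDN3, the ligand of neural crest and gut, had 0 counts in all libraries, which allows up to 3 counts in the whole course. EDN1 was the endothelin ligand with a count in all 41 libraries, and EDN2 had a count in 15 of them.

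A wider set of 90 genes in 8 lists was used to see whether the machinery around the peptide moved with it, and 69 of them passed the filter. The lists were chosen with earlier results of these libraries known, so their shares are a description. At 60 min 9 of the 69 were higher than at 0 min (13.0%, against 5.15% of all genes tested) and 0 were lower (1.23% of all genes), by edgeR's quasi-likelihood test at a Benjamini-Hochberg adjusted p below 0.01. At an unadjusted p below 0.05, 3 were lower at 60 min, and DESeq2 called 0. Of the 9 upward genes at 60 min, 5 were factors known at the EDN1 promoter and 2 belonged to other vasoactive peptide systems. Among desensitization genes 1 was called, and among convertases, cleaving enzymes and G protein alpha subunits 0. The pooled share at 60 min is thus not a measure of the machinery around the peptide. After 240 min the calls were 23 genes upward (33.3%, against 21.6% of all genes) and 16 downward (23.2%, against 18.5%). In the last comparison, at 400 min, they were 21 upward (30.4%, against 24.2%) and 19 downward (27.5%, against 22.4%). The median log2 change of the 69 genes was 0.041, 0.095 and 0.079 at the 3 times, beside 0.011, -0.002 and -0.004 over all genes. When the 0 min library was left out, the 240 min calls dropped to 7 upward and 2 downward, beside 1302 and 482 of all genes, and with spike-in size factors to 12 and 5.

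Proprotein convertases, which make the first cut, were modestly higher late in the course, with 3 of 4 past the threshold at 240 min (75.0%, against 21.6% of all genes) and 2 at 400 min (50.0%, against 24.2%). FURIN, the main convertase of the secretory pathway, had normalized counts of 985.5, 1094, 1610 and 1179 at 0, 60, 240 and 400 min (log2 change 0.55 ± 0.10 (SE) at 240 min, edgeR adjusted p = 1.7e-05). PCSK7 had 1024 at the start, 1334 after 240 min and 1418 in the last library (0.54 ± 0.08 at 400 min, edgeR adjusted p = 1.2e-07). PCSK5 was higher at 240 min (0.86 ± 0.26, edgeR adjusted p = 0.0047), and PCSK6 had a log2 change of 0.69 ± 0.25 that did not pass (edgeR adjusted p = 0.020). The log2 changes of FURIN, PCSK7 and PCSK5 at 240 min were 0.55, 0.38 and 0.86, and that of EDN1 was 8.31. With the 0 min library left out, no convertase passed at 240 or 400 min, and the edgeR adjusted p of FURIN at 240 min was 0.23 at a log2 change of 0.56. With spike-in size factors FURIN passed at 240 min (0.0098) and PCSK7 and PCSK5 did not (0.078 and 0.037), and at 400 min neither FURIN nor PCSK7 passed (edgeR adjusted p = 0.079 and 0.020).

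Among 8 enzymes besides ECE1 that convert or degrade endothelins, or are close relatives of those, 4 did not pass the filter. ECE2 had 12 counts, ECEL1 had 1, MMEL1 had 6 and CMA1, the mast cell chymase, had 5, each over all libraries. Of the 4 that passed the filter, CTSA, a lysosomal carboxypeptidase that trims endothelin-1, fell from 6626 at 0 min to 4809 at 400 min (log2 change -0.42 ± 0.08, edgeR adjusted p = 9.2e-06). MME, or neprilysin, which degrades the peptide, had 793.6 at the start, a lowest value of 425 in the 30 min library and 896 in the last, and its log2 change at 400 min was 0.0024 ± 0.22 (edgeR adjusted p = 0.99). PHEX (-0.33 ± 0.22) and KEL (-1.71 ± 0.94), which has 205 counts in all, did not pass at 400 min by edgeR (adjusted p = 0.21 and 0.12). The call of CTSA was lost with spike-in size factors (adjusted p = 0.12) and without the library at 0 min (0.15).

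Of the 8 G protein alpha subunits, which carry the signal from the receptors, 0 passed at 60 min by edgeR. By 240 min 2 had risen (25%, against 21.6% of all genes), and by 400 min 3 had risen (37.5%, against 24.2%) and 2 had fallen (25%, against 22.4%). GNA12, the alpha subunit of G12, went from 2120 at 0 min to 3264 at 240 min (log2 change 0.57 ± 0.07, edgeR adjusted p = 1.9e-09), and GNAI3 from 4201 to 6337 at 400 min (0.49 ± 0.11). GNA13 (-0.42 ± 0.12) and GNAI2 (-0.40 ± 0.08) were lower at 400 min. With spike-in size factors GNA12, GNAI3, GNA13 and GNAI2 did not pass by edgeR (adjusted p = 0.011, 0.12, 0.30 and 0.12), nor did they without the 0 min library (0.024, 0.15, 0.84 and 0.14). GNAQ, the subunit classically coupled to both receptors, was measured at 1408 at 0 min and 1741 at 400 min and did not pass (edgeR adjusted p = 0.31 at 400 min). GNA11, its close relative, was higher at 240 min, with 1026 at 0 min and 1412 at 240 min (0.40 ± 0.12, edgeR adjusted p = 0.0059). At 400 min GNA11 did not pass (0.32 ± 0.13, edgeR adjusted p = 0.037). With spike-in size factors, or without the 0 min library, 0 of the 8 subunits passed at 240 min. Both GNAQ and GNA11 are named here after their values were seen.

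Of 10 tested genes of phospholipase C, inositol trisphosphate receptors and protein kinase C, a group drawn from a longer list after the values were seen, 1 was higher (10.0%, against 24.2% of all genes) and 4 were lower (40.0%, against 22.4%) in the last comparison. Under spike-in scaling these were 0 and 2, and in the fit without the 0 min library 1 and 0. PLCB4, a phospholipase C, fell from 1900 at 0 min to 915 at 400 min (log2 change -1.20 ± 0.18, edgeR adjusted p = 4.0e-07). The inositol trisphosphate receptors ITPR1 (-0.85 ± 0.08) and ITPR2 (-0.55 ± 0.16) fell as well, and PRKCD, a protein kinase C, was higher (0.66 ± 0.13). After leaving out the 0 min library, PLCB4, ITPR1 and ITPR2 did not pass by edgeR at 400 min (adjusted p = 0.60, 0.035 and 0.77), while PRKCD did (0.0097). With spike-in size factors PLCB4 and ITPR1 kept their calls and ITPR2 and PRKCD did not (adjusted p = 0.18 and 0.014).

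Genes that switch off receptor signaling were mostly past the threshold late in the course, with 5 of 11 higher and 5 lower at 240 min and again at 400 min. Each count is 45.5% of the list, against 21.6% and 18.5% of all genes at the first of these times and 24.2% and 22.4% at the second. Under spike-in scaling 3 were higher and 2 lower at 240 min, and in the fit without the 0 min library 1 and 1. RGS2, a GTPase activator for Gq, fell from a normalized count of 4696 before serum to 2314 after 240 min and 851 in the last library (log2 change -2.64 ± 0.13 at 400 min, edgeR adjusted p = 5.5e-20). RGS3, another such regulator, rose from 1164 before serum to 4357 after 160 min and ended at 3162 (1.76 ± 0.10 at 240 min, edgeR adjusted p = 6.7e-20). RGS4 rose from 27.0 to 101.9 at 400 min (1.71 ± 0.27), and RGS16 fell by 2.51 ± 0.81 on the log2 scale from 15.6, with 242 counts in all. The beta-arrestin genes, named after their values were seen, were lower, with ARRB1 at 1551 and 493 at 0 and 400 min (-1.71 ± 0.08, edgeR adjusted p = 2.4e-22) and ARRB2 at 195 and 104.9 (-0.80 ± 0.16). The receptor kinase genes, likewise named after their values were seen, went the other way. GRK5 (0.70 ± 0.11), GRK6 (0.49 ± 0.11) and GRK2 (0.32 ± 0.08) were higher at 240 min and GRK3 (0.42 ± 0.12) at 400 min. RGS3 was the 1 gene of the list called higher at 400 min without the 0 min library. In the fit without the 0 min library the changes of RGS2, RGS3 and ARRB1 at 400 min kept their calls, those of RGS4 and ARRB2 did not (edgeR adjusted p = 0.018 and 0.12), and RGS16 changed sign to 4.33 with an adjusted p of 0.23. Under spike-in scaling RGS16 and ARRB2 did not pass by edgeR at 400 min (adjusted p = 0.012 and 0.011).

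Transcripts of factors known at the EDN1 promoter were the list with the most early calls, with 5 of 15 upward by 60 min (33.3%, against 5.15% of all genes). This list was chosen with earlier results of these libraries known, so its shares are a description and not a test of enrichment. Under spike-in scaling 3 of these calls were left, and JUN and SMAD3 did not pass by edgeR (adjusted p = 0.087 and 0.28). By 240 min 8 were upward (53.3%, against 21.6%) and 5 downward (33.3%, against 18.5%), and by 400 min 5 (33.3%, against 24.2%) and 4 (26.7%, against 22.4%). In the fit without the 0 min library 3 were upward by 60 min, and 4 were upward and 1 downward by 240 min and again by 400 min. FOS, a subunit of AP-1, had 238 before serum, 16480 in the 30 min library and 36.3 in the last (log2 change 3.95 ± 0.14 at 60 min and -2.72 ± 0.18 at 400 min, edgeR adjusted p = 1.9e-25 and 1.6e-17). GATA2, which binds the GATA element of this promoter in endothelium, had 7.26 before serum, 116.6 at its highest in the 110 min library and 12.7 in the last, and its log2 change was 3.54 ± 0.41 at 60 min (edgeR adjusted p = 3.4e-09). Transcripts of FOS and JUN were highest at 30 min and those of GATA2 at 110 min, before the 180 min of EDN1. Those of KLF2 and SMAD3 were highest after it, at 300 min, and those of HIF1A at 400 min. The library at 300 min was the one farthest from the curves over all genes. SMAD3 had 7554, 8080 and 7428 at 240, 300 and 400 min, and KLF2 79.5, 118 and 72.5. The part of the 300 min library in these late maxima was not tested. Other factors of the list went either way, and a part of this order in the rise of EDN1 was not tested. KLF2, a flow-responsive factor that in endothelium lowers endothelin-1, rose from 19.7 to 72.5 at 400 min (2.09 ± 0.33, edgeR adjusted p = 5.8e-07). SMAD3, the mediator of TGF-beta signals, rose from 1745 to 7428 at 400 min (2.17 ± 0.10, edgeR adjusted p = 2.5e-23). Without the library at 0 min FOS, KLF2 and SMAD3 kept these calls and GATA2 and SMAD3 did not pass at 60 min by edgeR (adjusted p = 0.038 and 0.030). HIF1A, whose protein binds the hypoxia response motif and which is named after its values were seen, had 7926 at 0 min and 22250 at 400 min (1.35 ± 0.22, edgeR adjusted p = 2.4e-06, and 0.014 without the 0 min library).

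**Figure D3:**
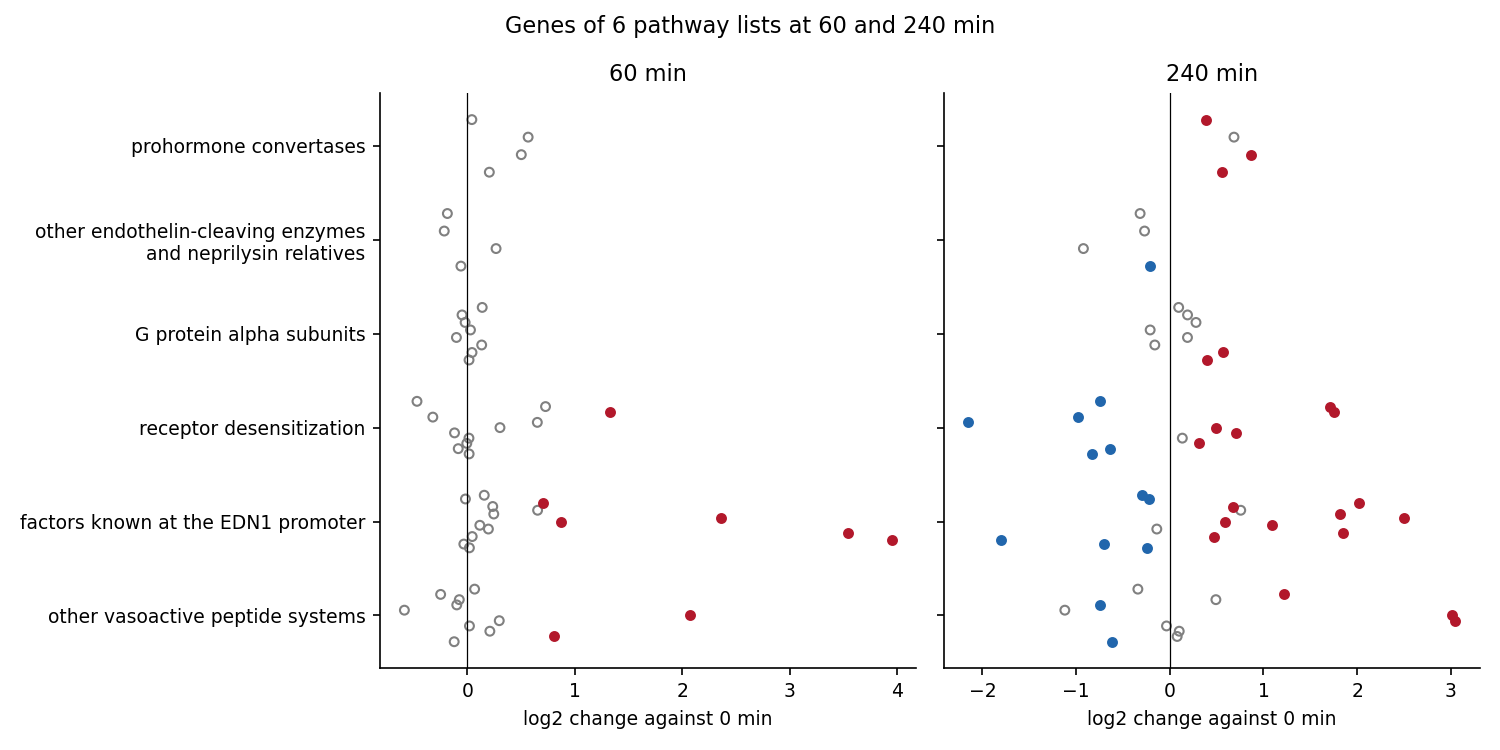
Log2 change against 0 min of each tested gene of 6 pathway lists at 60 and 240 min, with 1 symbol per gene, red for genes higher and blue for genes lower at an edgeR adjusted p below 0.01 and open gray circles for the rest. At 60 min 5 factors known at the EDN1 promoter are higher, and at 240 min 8 of them are higher and 5 lower.

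Several genes followed the course of EDN1 closely. Among 11886 protein-coding genes with a mean normalized count of at least 50, Pearson's r of log2(normalized count + 1) with EDN1 over the 41 libraries was highest for ANKRD1 (0.99), PLAU (0.99), FOSL1 (0.98), F3 (0.98) and GEM (0.98), and 39 genes were above 0.95. ANKRD1, a nuclear ankyrin repeat protein, was like EDN1 also in size and time, with 38.4 before serum, 8814 at its highest after 140 min and 4937 in the last library. PLAU, the urokinase plasminogen activator, F3, the tissue factor of coagulation, FOSL1, an AP-1 subunit, and GEM, a small GTPase, started from higher levels and passed the midpoint of their rise earlier, at 58.0, 59.9, 66.0 and 79.0 min, against 98 min for EDN1 and 89.0 min for ANKRD1. Their levels at 400 min were also nearer to their highest. By rank correlation 1 of these 5 genes, ANKRD1, was still among the 5 most like EDN1.

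The 5 genes most like EDNRA were CPEB2 (0.88), RBBP6 (0.88), KIT (0.87), STK17B (0.86) and PAG1 (0.86). All 5 were lowest at 300 or 310 min, as EDNRA was, and the library at 300 min was the one farthest from the curves over all genes. Those most like ECE1 were PRKCSH (0.87), GPI (0.84), CLCN7 (0.84), FASN (0.84) and BSG (0.84), and all 5 were highest in the library at 30 min, as ECE1 was. The part of those libraries in the likeness was not tested.

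**Figure D4:**
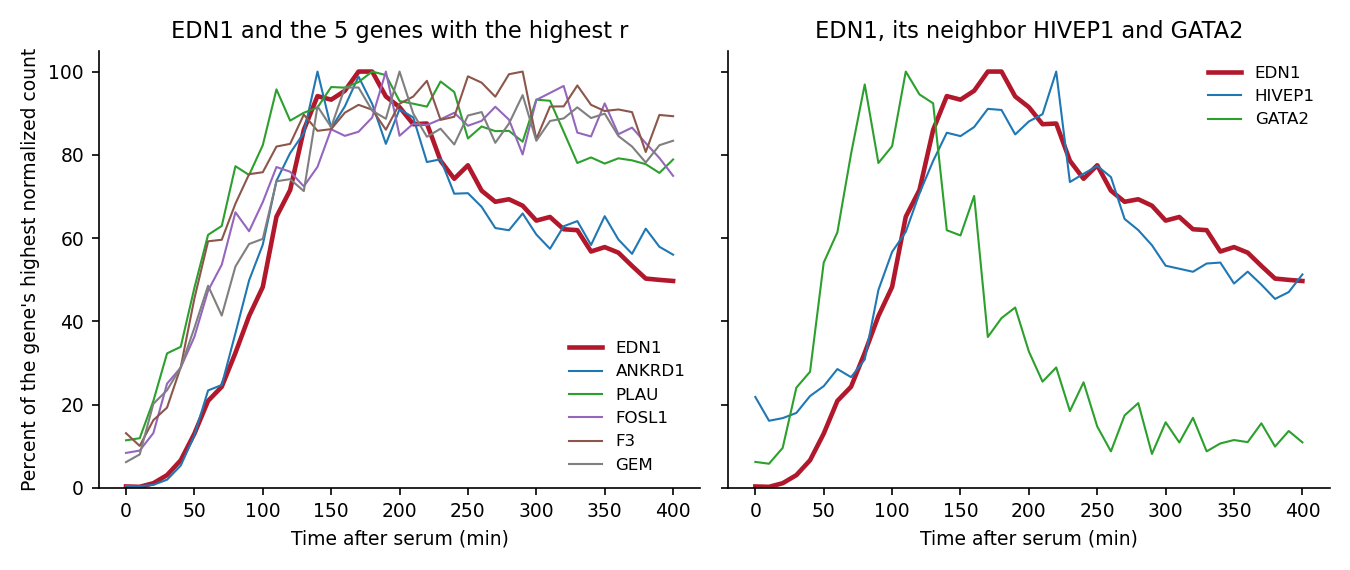
Normalized counts as a percent of each gene's highest value against time after serum (min), for EDN1 and the 5 genes with the highest r (left) and for EDN1, its neighbor HIVEP1 and the GATA2 transcript (right). ANKRD1 rises and declines with EDN1, and the other 4 genes on the left rise earlier and decline less. HIVEP1 rises mostly after 80 min, is highest at 220 min and then declines. GATA2 is highest at 110 min and low again by 400 min.

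Of 11 annotated genes that start within 500 kb of EDN1, 5 passed the filter. HIVEP1, a zinc finger factor whose start lies 281.6 kb upstream on the same strand, had a normalized count of 750 before serum, 3437 at its highest in the 220 min library and 1762 in the last. At 60, 240 and 400 min its log2 change was 0.27 ± 0.11, 1.81 ± 0.11 and 1.12 ± 0.12 (edgeR adjusted p = 0.13, 2.1e-18 and 2.1e-11), and its running mean crossed the midpoint of the rise at 100.7 min. Pearson's r between HIVEP1 and EDN1 was 0.87 over the 41 libraries, and 259 of the 11886 genes compared (2.18%) had an r at least as high. Spearman's rank correlation was 0.967, above the 0.964 of ANKRD1, which ranked 5 by that measure. A lncRNA on the same strand (ENSG00000229896, chr6:12007670-12008856) overlaps the start of HIVEP1, at 12008762. It was higher at 240 min (2.70 ± 0.73, edgeR adjusted p = 0.0019, and 0.83 without the 0 min library) with 482 counts in all. A read over both genes was added to each, and the part of HIVEP1 reads in these counts was not tested. PHACTR1, whose start lies 426 kb downstream, had 16.6 at 0 min and 22.5 at 400 min and did not pass (edgeR adjusted p = 0.34).

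Around the other members, 4 of 16 genes within 500 kb of EDNRA, 0 of 17 near EDNRB and 7 of 21 near ECE1 passed the filter. TMEM184C, 136.5 kb downstream of EDNRA, was higher at 400 min (log2 change 0.41 ± 0.12, edgeR adjusted p = 0.0049). Near ECE1, NBPF3 (-0.39 ± 0.10) and EIF4G3 (-0.22 ± 0.07) were lower at 400 min by edgeR (adjusted p = 0.0013 and 0.0083). ECE1-AS1, a lncRNA inside ECE1 on the opposite strand, fell from 17.6 at 0 min to 5.88 at 400 min (-2.31 ± 0.57, edgeR adjusted p = 0.00058) on 289 counts in all, whereas ECE1 had 103363 counts and no such change. Without the library at 0 min the adjusted p was 0.47 for ECE1-AS1, 0.040 for TMEM184C, 0.052 for NBPF3 and 0.82 for EIF4G3, while HIVEP1 kept its call at 240 min (3.4e-06). Under spike-in scaling HIVEP1 and ECE1-AS1 kept theirs, and TMEM184C, NBPF3 and EIF4G3 did not (adjusted p = 0.21, 0.21 and 0.59).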

How the data were processed

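Libraries came from a stranded rRNA-depleted total RNA kit. The authors trimmed reads with cutadapt 1.11, aligned them to GRCh38 with STAR 2.5.2a and deposited raw counts per gene from featureCounts. Counting was stranded, and a read with several alignments or over several genes was added to each gene. A second deposited table held a signal value, the count over a DESeq2 1.24.0 size factor, and recomputing those factors gave a relative difference of up to 1.9e-15.

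Genes needed more than 10 counts in a library and more than 2 in 3 neighboring time points, and were fitted in edgeR 4.0.16 as a natural cubic spline of time (7 degrees of freedom, knots at 20, 40, 60, 100, 160 and 260 min, 33 residual degrees of freedom). Curve values at 60, 240 and 400 min were tested against the value at 0 min, two-sided, with adjustment over all 21629 genes. With 1 library per time point, p-values measure scatter about the curve. Symbols, positions and exon lengths came from GENCODE release 44 on the same build, to which 58207 genes matched, and promoters from RefSeq GRCh38.p14, with 1 window for EDNRA, 2 for EDNRB, 3 for EDN1 and 4 for ECE1.

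The members and lists were chosen with earlier results of these data known. Besides the members, the text names every gene of the ligand, convertase and cleaving enzyme lists, up to 4 called genes of each other list with the largest change at 240 or 400 min, 5 genes most like each member, and within 500 kb of a member the tested lncRNAs and the nearest tested protein-coding gene on each side. Alternatives changed the scaling, filter, spline, libraries, test (DESeq2 1.42.0) and threshold. The fit was tested on simulated data. Part of 1 list, whose genes enter the counts over all lists, is not reported here.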

Additional observations from a re-analysis of the deposited data

How the results depend on the processing

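Of 289 values recomputed under an alternative, 235 stayed within the limits set (a count within 1.5 times, a log2 change or time within its error). The other 54 moved further. Small log2 changes of EDNRA and ECE1, which were not tested, changed sign under some settings. Single list genes such as RGS16, which also changed sign, are not among these values. The cause of these moves was not tested. Without the 4 libraries farthest from the curves (300, 20, 250 and 90 min), chosen after seeing the data, the list counts at 240 min were 24 upward and 16 downward, and the log2 change of EDN1 was 8.31. With spike-in size factors the list genes called at 60, 240 and 400 min were 5, 12 and 9 upward, with 5 downward at 240 min and 8 at 400 min. The calls over all genes were then 317 upward and 150 downward at the first of these times, 2399 and 1725 at the second and 2795 and 2597 at the last. When the 0 min library was left out, 5, 7 and 9 list genes were called upward at the 3 times, with 2 downward at 240 min and 4 at 400 min, and the calls over all genes were 302 and 11, 1302 and 482, and 1767 and 1134. With 5 degrees of freedom 2 list genes were lower at 60 min, and 2098 of all genes were higher and 984 lower. At an adjusted p below 0.05, 606 genes were lower at 60 min.

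The log2 change of EDN1 was 5.32, 7.67 and 6.98 at 60, 240 and 400 min with 5 degrees of freedom, 8.19, 10.32 and 9.66 without the library at 0 min and 5.80, 7.93 and 7.26 without that at 10 min, and at 60 min it was 5.90 with spike-in size factors. That of EDNRA was 0.45, 0.036 and 0.079 without the library at 0 min, -0.012 and 0.056 at 240 and 400 min with 5 degrees of freedom, and -0.054 at 60 min with spike-in size factors. That of ECE1 was 0.21, 0.25 and 0.17 without the library at 0 min, -0.17 and -0.25 at 240 and 400 min with 5 degrees of freedom, and -0.24 at 60 min with spike-in size factors. The time to the midpoint was 98 min for EDN1. For EDNRA it was 44.7 min, but 83.5 min with spike-in size factors, 275 min with library size and 273 min with a running mean of 5 libraries. For ECE1 it was 44.6 min, but 59.9 min with a running mean of 5 libraries, so no such time is given for these genes above. Depth limits EDNRB, EDN2, ECE2 and the other genes with under 20 counts, whose course cannot be read. No paired analysis was possible because each time point has 1 library and no replicate numbers.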

Other observations

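Other peptide systems that act on blood vessels were read from a list of 25 genes, of which 11 passed the filter, with 2 upward at 60 min (18.2%, against 5.15% of all genes). By 240 min 3 were upward (27.3%, against 21.6%) and 2 downward (18.2%, against 18.5%), and by 400 min 4 (36.4%, against 24.2%) and 3 (27.3%, against 22.4%). The bradykinin receptors rose. BDKRB2, the constitutive receptor, had a normalized count of 73.7 at 0 min, 674.5 at its highest at 120 min and 347 at 400 min (log2 change 3.01 ± 0.21 (SE) at 240 min, edgeR adjusted p = 2.2e-16, and 1.4e-04 without the library at 0 min). BDKRB1, the inducible receptor, went from 2.08 at 0 min to 26.2 at 310 min (3.05 ± 0.79 at 240 min, edgeR adjusted p = 0.0012, and 0.56 without the library at 0 min) on 483 counts in all.

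NPR2, the receptor of C-type natriuretic peptide, went from 219.9 at 0 min to 76.5 at 400 min (-1.46 ± 0.15, edgeR adjusted p = 3.6e-11), and CALCRL from 14.5 to 2.94 (-3.12 ± 0.71, edgeR adjusted p = 0.00022, and 0.022 without the library at 0 min). The precursors of natriuretic peptides, vasopressin, urotensin and kinins had at most 71 counts each over all libraries.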
